A study of Mus musculus with 40 samples.

Results

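The carnitine shuttle is the set of proteins that carries long fatty acids into mitochondria for oxidation, and its genes were followed here together with the related carnitine acyltransferases in mouse liver. The members are 7 genes, Slc22a5, Cpt1a, Cpt1b, Slc25a20, Cpt2, Crat and Crot, taken by gene symbol from the 21448 symbols measured. Each gene was read on its most counted probe, and its other probes served as a check. At the highest dose given, 5 of the 7 members rose in males, where 4.83% of all probes tested rose, and 3 rose in females, where 1.83% did, and these counts were 2 and 0 when a shallow library that the main comparison leaves out was included. Cpt1a, the liver form of the entry enzyme, and Slc22a5 did not pass the test in either sex.

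Fatty acids bound to coenzyme A cannot cross the inner mitochondrial membrane. Carnitine enters the cell through the transporter OCTN2 (Slc22a5), and carnitine palmitoyltransferase 1 in the outer membrane, in its liver form (Cpt1a) or its muscle form (Cpt1b), moves the acyl group from coenzyme A onto carnitine. The translocase CACT (Slc25a20) exchanges acylcarnitine for free carnitine across the inner membrane, and carnitine palmitoyltransferase 2 (Cpt2) moves the acyl group back onto coenzyme A in the matrix. Carnitine acetyltransferase (Crat) acts on short chains and buffers acetyl groups, and carnitine octanoyltransferase (Crot) acts on the medium chains that peroxisomes leave over. Several of these genes are known targets of PPARα, the nuclear receptor that responds to fatty acids and to peroxisome proliferators.

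Livers came from wild-type Crl:CD1(ICR) mice of both sexes, an outbred stock, that received GenX, a fluorinated processing aid, by oral gavage for 90 days at 0 (controls), 0.1 (lowest), 0.5 (middle) or 5 (highest) mg/kg bw/d. The vehicle, given alone to the controls, was deionized water, mice were housed singly, and their age is not given in the sources used here. Each of the 8 groups held 5 mice, and each mouse gave 1 formalin-fixed, paraffin-embedded section, whose RNA was measured with TempO-Seq, an assay in which a pair of probes is joined on its target RNA, amplified and counted by sequencing. The question was how each dose changed expression against control mice of the same sex.

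The library of mouse 355, a female at the middle dose, held 6711981 reads, under the limit of 9680193 (2 SD below the mean), and was left out, so that group had 4 mice. The other 39 libraries held 10341341 to 15562253 reads. The first peak of the smoothed nonzero counts lay at 20.8 to 44.8 reads by library and is taken here as the yield of 1 captured molecule. On that reading, which was not tested, a library stood for 287241 to 656745 molecules. Males at the highest dose had more molecules per library (483009 to 656745) than control males (287241 to 369995), whereas females at the highest dose had 306231 to 339820 and control females 333648 to 521441. Reads from 4 Y-linked genes were present in all 20 male libraries and in none of the 20 female libraries. Of the hepatocyte markers, Cps1 and Apoa1 fell at the highest dose in both sexes, and the summed level of the 5 markers was 29500 to 36100 CPM in control males, 17400 to 24300 CPM in males at the highest dose, 22200 to 38700 CPM in control females and 14800 to 24100 CPM in females at the highest dose. Col1a1, a stellate cell marker, rose in males at the highest dose (summed level of 5 markers 123 to 170 CPM against 59.3 to 127 CPM in controls). The endothelial marker Clec4g fell in the same males (summed level of 4 markers 74.1 to 149 CPM against 134 to 161 CPM in controls). No other hepatocyte, stellate cell or endothelial marker was called at the highest dose. The study describes lower Apoa1 as a rodent response to PPARα activation and reports it in these mice, so Apoa1 need not follow the number of hepatocytes. The part of these shifts in the results was not tested, and in bulk tissue more cells of a type cannot be told apart from more RNA per cell.

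The promoters of the 3 members that rose in both sexes are printed first, because no other member was called in both. The RefSeq promoter table (GRCm38.p6, 250 bases before to 50 after the start) held 5 of the 7 members, not Cpt1b or Crat. Capitals mark the stretch closest to DR1 where 1 stretch is closest, the element that PPARα binds with its partner RXR, searched on both strands as the half-site AGGTCA repeated in the same direction with 1 base between and scored by how many of its 12 fixed positions match. The Slc25a20 promoter, on the plus strand at chr9:108661886-108662185, matched 10 of 12 positions in a stretch that begins 6 bases after the start, and 3.86% of 32851 promoters of this length matched as well or better. The Crot promoter, on the minus strand at chr5:8997097-8997396, matched 8 positions, as did those of Cpt1a and Slc22a5, and 79.8% of promoters reached that. The Cpt2 promoter, on the minus strand at chr4:107923540-107923839, matched 7 positions in 10 stretches, which are not marked, and 99.9% of promoters reached that. A match is a description of these letters, not a binding site.
Slc25a20: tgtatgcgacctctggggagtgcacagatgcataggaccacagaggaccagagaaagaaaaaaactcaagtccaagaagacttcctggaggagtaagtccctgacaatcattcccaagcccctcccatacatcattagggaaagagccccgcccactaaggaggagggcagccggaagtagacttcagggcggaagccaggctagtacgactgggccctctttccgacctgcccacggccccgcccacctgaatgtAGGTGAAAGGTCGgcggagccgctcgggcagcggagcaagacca
Crot: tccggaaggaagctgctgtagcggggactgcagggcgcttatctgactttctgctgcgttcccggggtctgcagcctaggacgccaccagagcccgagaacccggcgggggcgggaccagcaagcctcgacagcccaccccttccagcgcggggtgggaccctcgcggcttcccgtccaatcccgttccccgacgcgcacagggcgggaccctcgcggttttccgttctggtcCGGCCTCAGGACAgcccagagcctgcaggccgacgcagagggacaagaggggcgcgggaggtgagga
Cpt2: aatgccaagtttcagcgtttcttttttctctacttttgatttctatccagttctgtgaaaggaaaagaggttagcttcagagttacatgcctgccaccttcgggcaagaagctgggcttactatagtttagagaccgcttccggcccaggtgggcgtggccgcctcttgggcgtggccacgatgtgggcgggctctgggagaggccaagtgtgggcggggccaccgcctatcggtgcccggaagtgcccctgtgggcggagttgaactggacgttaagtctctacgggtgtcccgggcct

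Slc22a5, the plasma membrane carnitine transporter (chr11:53864542-53891660, minus strand, GRCm38), was close to the limit of detection on all its 3 probes, of which the other 2 had no read in any control. Its most counted probe had no read in 23 of 39 libraries and never exceeded 8.78 CPM, about 3.2 molecules. CPM are counts scaled to a common library size after TMM normalization. Control males read 4.6, 0, 0, 5.24 and 0 CPM and males at the highest dose read 0, 2.79, 0, 1.85 and 0 CPM. Control females read 0, 0, 0, 0 and 4.92 CPM and females at the highest dose read 0, 0, 1.59, 8.78 and 6.99 CPM. The groups overlapped in both sexes. The log2 fold change at the highest dose was -1.08 in males (95% interval -5.98 to 3.83) and 1.81 in females (-3.20 to 6.81), with an adjusted p of 1 in each (edgeR quasi-likelihood F-test), and changes of several log2 units in either direction lie within these intervals.

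Cpt1a (chr19:3322334-3385733, plus strand) catalyses the step at which entry into mitochondria is held back by malonyl-CoA, the product of acetyl-CoA carboxylase. It was measured by 1 probe. Control males read 3.19, 3.66, 2.57, 13.3 and 11 CPM, and males at the highest dose read 0, 2.85, 7.25, 2.27 and 6.83 CPM. Control females read 2.64, 19.1, 3.95, 5.72 and 22.5 CPM, and females at the highest dose read 3.24, 3.42, 12.1, 2.56 and 12.3 CPM. Treated and control mice overlapped in both sexes, and the highest value of each comparison lay among the controls. No dose passed the test, and the 6 log2 fold changes against control were all negative, from -2.48 in females at the lowest dose (SE 1.23, unadjusted p 0.05, adjusted p 0.485) to -0.60 in males at the middle dose. At the highest dose the log2 fold change was -0.81 in males (95% interval -3.18 to 1.55) and -0.68 in females (-3.04 to 1.67). These intervals include both a fall and a rise of more than 1 on the log2 scale, and the whole count rested on at most 7.9 molecules in a library.

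Cpt1b (chr15:89416405-89425863, minus strand), the form of the same enzyme known from muscle, heart and brown fat, was near 0 in control livers and present in every mouse at the highest dose. Control males read 2.97, 0, 9.21, 0 and 0 CPM. Males at the highest dose read 98.6, 98.3, 53.1, 38.6 and 25.6 CPM, the first from about 51 molecules and the second from about 66. Control females read 3.23, 0, 0, 0 and 7.98 CPM and females at the highest dose read 20.2, 28.2, 8.53, 20.5 and 20.8 CPM. Every treated mouse of each sex lay above every control, in females by a narrow margin for mouse 453. At the middle dose, males read 0 to 8.14 CPM and females 0 to 4.06 CPM, within the range of the controls. The log2 fold change at the highest dose was 4.68 in males (SE 1.49, adjusted p = 0.0466), which passed the threshold of 10%, and 3.12 in females (SE 1.40, adjusted p = 0.258), which did not. The male call was lost in DESeq2 (adjusted p = 0.138), with mouse 355 included (0.116) and without control mouse 102, 104 or 105 or treated mouse 402 (0.105, 0.106, 0.106 and 0.112), each with a log2 fold change of at least 4.36. In females the adjusted p was 0.0285 with the 3 probes summed (log2 fold change 3.99) and 0.00129 in units of molecules (3.18). The sum rests partly on a probe that had no read in any control, described next.

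The second probe, Cpt1b_80344, had no read in any of the 10 control mice. It read 69.3, 63.1, 50.8, 33.2 and 22.9 CPM in males at the highest dose and 19.9, 20.8, 1.99, 11.6 and 10.9 CPM in females at the highest dose. Males at the middle dose read 2.5, 11, 0.403, 2.6 and 4.73 CPM, and females at that dose read 0, 0, 0 and 3.63 CPM. With every control at 0, the probe entered the test through dosed mice only, so neither a fold nor a p is given for it. In males at the middle dose its reads stand for 0.2 to 4.2 molecules per library, and the other 2 probes had log2 fold changes of 0.38 and -0.36 there, each with an adjusted p of 1. The third probe, Cpt1b_31741, read 9.36 to 27.7 CPM in males and 0 to 15.8 CPM in females at the highest dose, against 0 to 2.73 CPM in control males and 0 to 1.35 CPM in control females, and did not pass the test (adjusted p of 0.187 and 0.257). The gene overlaps the locus Gm44502 on its strand, whose own probe stayed at or under 3.39 CPM in males and 6.85 CPM in females at the highest dose, and Chkb, the neighbour that Gm44502 also spans, differed by 0.26 (males) and 0.36 (females) on the log2 scale, with an adjusted p of 1. Mb, Tnnt3 and Myh6, which define muscle, were at 0 in all 39 libraries, and Ckm, Ttn and Actn2 had reads in 3, 2 and 1 of them. Acta1 had reads in 36 libraries, and the summed level of the 7 muscle markers was 0 to 17.1 CPM in control males, 4.4 to 21.4 CPM in males at the highest dose, 0.989 to 20.8 CPM in control females and 0 to 11.3 CPM in females at the highest dose. Of the 5 adipocyte markers, Ucp1 had no read and Adipoq, Plin1 and Lep had reads in 1 library each, while Adrb3 had reads in 29 libraries, up to 43.3 CPM. The summed level of these 5 markers was 0 to 20.7 CPM in control males and 1.9 to 20.7 CPM in males at the highest dose. In females it was 2.66 to 22.7 CPM in controls and 0 to 15.6 CPM at the highest dose.

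**Figure D1:**
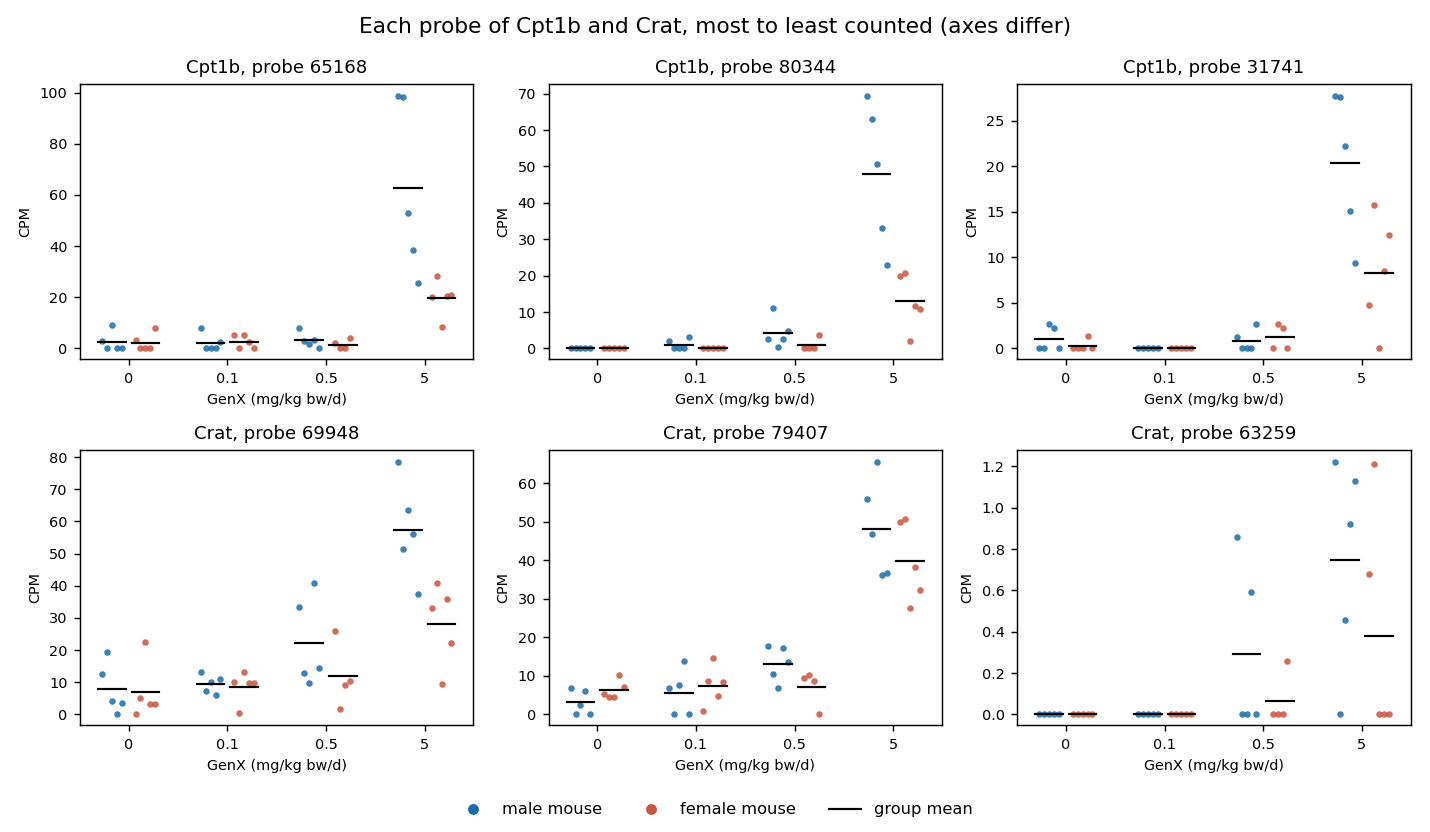
Level of each probe of Cpt1b (top) and Crat (bottom) in CPM (y axis, ranges differ) against the dose in mg GenX per kg and day (x axis), with 1 point per mouse, males in blue, females in red and a bar at the group mean. On the most counted Cpt1b probe the 5 males at 5 mg/kg lie between 25.6 and 98.6 CPM and the 5 females between 8.53 and 28.2 CPM, above the highest controls at 9.21 and 7.98 CPM.

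Within a library, the ratio of Cpt1b to Cpt1a was higher at the highest dose than in controls. The log2 ratio of Cpt1b to Cpt1a (prior count 2) was -0.10, -4.66, 1.78, -6.48 and -6.21 in control males and 9.35, 5.04, 2.85, 4.00 and 1.88 in males at the highest dose. In females it was 0.28, -6.99, -4.76, -5.28 and -1.48 in controls and 2.59, 2.99, -0.50, 2.93 and 0.75 at the highest dose. The means differed by 7.75 in males (exact two-sided permutation p = 0.00794, the smallest that 5 against 5 mice can give, adjusted p = 0.0476 over 6 comparisons) and by 5.40 in females (exact permutation p = 0.0159, adjusted p = 0.0477). The size of these differences depends on the prior count, since Cpt1b had no read in 3 of 5 controls of each sex, and with a prior count of 0.5 they were 9.36 and 6.61 with the same adjusted p. Both prior counts lie under the 20.8 to 44.8 reads taken here as 1 molecule. The size therefore rests in large part on libraries in which a gene had no read, and no larger prior count was tried. All 5 treated males and 4 of 5 treated females lay above every control of their sex, the male margin being 1.88 against 1.78. At the lower doses the differences were 0.67 to 3.87 with adjusted p of 0.111 to 0.738, the lowest in females at the lowest dose, where it ranged from 0.0634 (without mouse 255) to 0.302 over the alternatives. Mouse 401, which had no Cpt1a read, gave the highest value, and without it the male difference was 6.57 (adjusted p = 0.0951). Without control female 152 or 154 the adjusted p in females was 0.0714, and without treated female 451, 452, 454 or 455 it was 0.0951. The 2 probes may capture their RNAs with unequal yield, so the ratio shows an unequal change and not which transcript was more abundant.

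**Figure D2:**
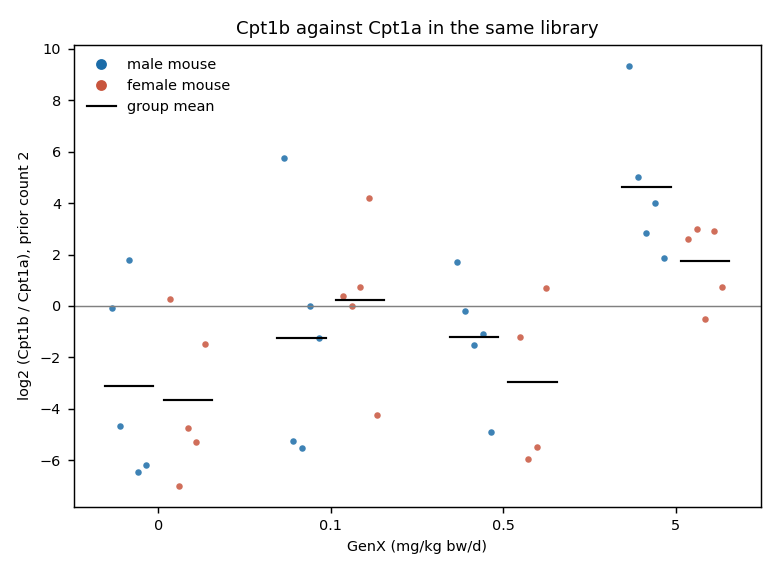
Log2 ratio of Cpt1b to Cpt1a in each library (y axis, prior count 2) against the dose in mg GenX per kg and day (x axis), with 1 point per mouse, males in blue, females in red and a bar at the group mean. The means at 5 mg/kg, 4.62 in males and 1.75 in females, lie above those of the controls, -3.13 and -3.65.

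Slc25a20 (chr9:108662088-108684641, plus strand), the inner membrane translocase whose promoter is printed above, was read in all 39 libraries by 1 probe. Control males read 32.6, 18.1, 11.9, 6.91 and 23.7 CPM and males at the highest dose read 65.5, 40.9, 60.6, 56.3 and 56.9 CPM. Control females read 14.6, 23.6, 12.3, 20.6 and 10.3 CPM and females at the highest dose read 56.7, 62.7, 29.4, 41.4 and 50.3 CPM. Treated mice lay above every control in both sexes. The translocase rose 3.00-fold in males (log2 fold change 1.59, SE 0.38, adjusted p = 0.00316) and 2.95-fold in females (1.56, SE 0.38, adjusted p = 0.00812). At the middle dose, males read 54, 21.8, 29.2, 28.8 and 39.1 CPM, 2 of them above every control, and the log2 fold change of 0.89 did not pass the test (adjusted p = 0.259). Females at the middle dose read 4.69, 25.3, 26.5 and 16.9 CPM and overlapped the controls (log2 fold change 0.17, adjusted p = 1). With mouse 355 included the adjusted p at the highest dose was 0.103 in males and 0.246 in females.

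Cpt2 (chr4:107903981-107923610, minus strand), the matrix enzyme that completes the shuttle, was also higher in every mouse at the highest dose than in any control of its sex. Control males read 28.3, 24, 43, 29.1 and 44.1 CPM and males at the highest dose read 72.2, 70.4, 84.4, 79.6 and 74.8 CPM. Control females read 19.6, 25.7, 32, 32.5 and 33 CPM and females at the highest dose read 71.4, 74.5, 65.2, 51.7 and 59.3 CPM. The lowest treated male and female lay well above the highest control. Cpt2 rose 2.26-fold in males (log2 fold change 1.18, SE 0.25, adjusted p = 0.000906) and 2.25-fold in females (1.17, SE 0.25, adjusted p = 0.00211). At the middle dose males read 37.8 to 58.1 CPM and females 20.5 to 59.3 CPM, with log2 fold changes of 0.44 (adjusted p = 0.41) and 0.47 (adjusted p = 0.524). At the highest dose the second probe, Cpt2_78530, rose in males (log2 fold change 1.75, adjusted p = 0.0823). In females its log2 fold change was 0.74 (adjusted p = 0.791), and treated mice read 4.62 to 25.1 CPM against 0 to 16.8 CPM in controls. At the middle dose this probe read 9.76 to 25.6 CPM in males, above every control male (2.94 to 9.29 CPM). It did not pass the test there (log2 fold change 1.24, adjusted p = 0.267), nor in females (0.77, adjusted p = 0.977). With mouse 355 included the adjusted p of the main probe was 0.187 in males and 0.322 in females.

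Crat (chr2:30400471-30415813, minus strand), the acetyltransferase, overlaps Dolpp1 on the other strand, whose probe had an adjusted p of 0.993 in males and 0.826 in females at the highest dose. Control males read 12.5, 19.4, 4.14, 0 and 3.61 CPM and males at the highest dose read 78.4, 51.5, 63.6, 56.2 and 37.4 CPM. Control females read 0.085, 5.15, 22.5, 3.26 and 3.39 CPM and females at the highest dose read 33, 40.7, 9.32, 35.9 and 22.3 CPM. The male groups did not overlap, whereas control female 153 lay above 2 of the 5 treated females. Crat rose 7.22-fold in males (log2 fold change 2.85, SE 0.79, adjusted p = 0.0145), and in females the log2 fold change was 2.04 (SE 0.76, adjusted p = 0.201). Without control female 153 the female value was 3.24 (adjusted p = 0.0172), and with all probes of the gene summed it was 2.36 (adjusted p = 0.000179). The second probe, Crat_79407, read 36.1 to 65.4 CPM in males at the highest dose against 0 to 6.97 CPM in controls (log2 fold change 3.93, adjusted p = 0.00399), and 27.7 to 50.8 CPM in females at the highest dose against 4.46 to 10.2 CPM (2.65, adjusted p = 0.121). On this probe no mouse of either sex at the highest dose overlapped a control, and the third probe, Crat_63259, stayed at or under 1.22 CPM. At the middle dose, males read 33.5, 12.8, 9.84, 40.8 and 14.3 CPM on the main probe, and the log2 fold change of 1.49 did not pass the test (adjusted p = 0.288) unless the probes were summed (1.67, adjusted p = 0.0181). On Crat_79407, 4 of 5 males at the middle dose lay above every control male (log2 fold change 2.06, adjusted p = 0.259). In females its log2 fold change at that dose was 0.15, also not past the threshold.

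Crot (chr5:8966033-8997324, minus strand), the peroxisomal octanoyltransferase, overlaps Gm27941 on its strand and Gm15610 and Gm37153 on the other. It was measured by 1 probe and was the 1 member called on its main probe below the highest dose. Control males read 54.9, 49.2, 42.8, 16 and 42.9 CPM, males at the middle dose read 112, 120, 167, 122 and 138 CPM, and males at the highest dose read 215, 315, 300, 207 and 107 CPM. Every male at the middle and the highest dose lay above every control male. The gene rose 3.20-fold at the middle dose (log2 fold change 1.68, SE 0.27, adjusted p = 7.34e-05) and 5.56-fold at the highest dose (2.47, SE 0.28, adjusted p = 3.04e-09). With mouse 355 included the adjusted p at the middle dose was 0.22, while at the highest dose the call held in every alternative. Males at the lowest dose read 61.1, 26.4, 34.2, 71.8 and 57.3 CPM and did not differ detectably from controls (log2 fold change 0.28, 95% interval -0.25 to 0.82).

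Female livers began from a higher level of Crot. Control females read 51.9, 62, 112, 77.4 and 102 CPM, a mean of 81.1 ± 25.7 CPM (SD, n = 5) against 41.2 ± 15 CPM in control males, and the difference passed the test (log2 fold change 0.98, SE 0.27, adjusted p = 0.0322). This call was lost without control male 104, the lowest of its group (0.77, adjusted p = 0.137), without control female 153 (0.84, adjusted p = 0.129), in a fit of the control mice alone (0.97, adjusted p = 0.116) and with mouse 355 included (0.98, adjusted p = 0.385). It was the 1 member called between the sexes of controls, where 2.11% of all probes were higher in females. At the middle dose females read 100, 78.8, 111 and 128 CPM (log2 fold change 0.36, adjusted p = 0.918), and at the highest dose they read 171, 158, 148, 279 and 230 CPM, above every control (log2 fold change 1.28, SE 0.27, adjusted p = 0.00153, and 0.322 with mouse 355 included). The mean at the highest dose was 229 ± 83.6 CPM in males and 197 ± 55.5 CPM in females.

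**Figure D3:**
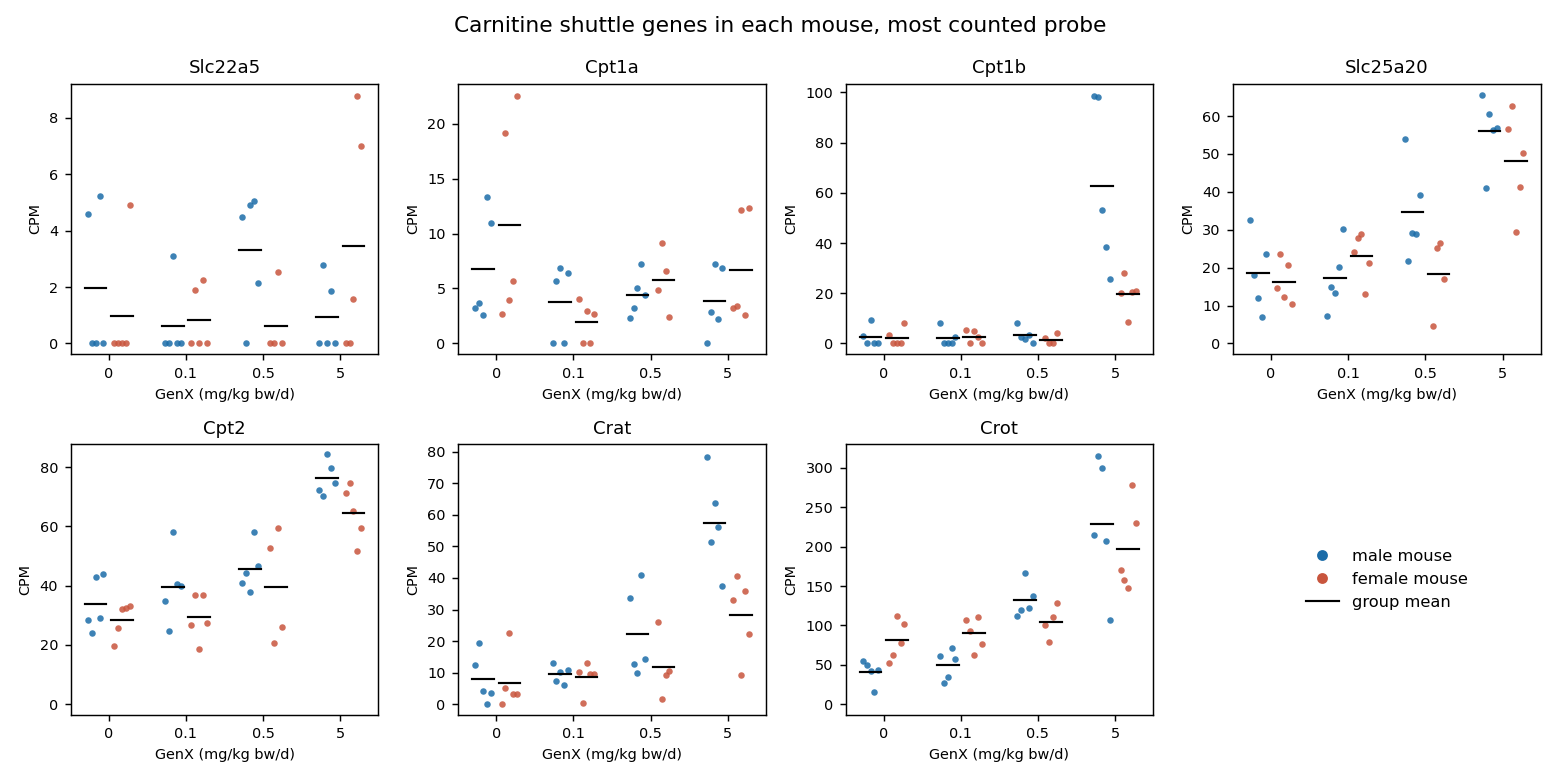
Level of each member on its most counted probe in CPM (y axis, ranges differ) against the dose in mg GenX per kg and day (x axis), with 1 point per mouse, males in blue, females in red and a bar at the group mean (5 mice a group, 4 females at 0.5 mg/kg). Crot in males rises from 16 to 54.9 CPM in controls to 112 to 167 CPM at 0.5 mg/kg, whereas Cpt1a and Slc22a5 overlap between all doses.

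Counted over the 7 members, all of which passed the filter on low counts on their main probe, 5 rose in males at the highest dose (Cpt1b, Slc25a20, Cpt2, Crat and Crot), where 4.83% of the 17877 probes tested rose, and none fell, where 3.45% of probes fell. In females at the highest dose 3 rose (Slc25a20, Cpt2 and Crot), against 1.83% of probes, and none fell, against 1.83% of probes. At the middle dose 1 member rose in males (Crot) against 1.74% of probes, with 0.638% of probes falling, and none was called in females, where 0.185% of probes rose and DESeq2 and an unadjusted p under 0.05 also gave 0 members. At the lowest dose none was called in either sex, against 0.0336% of probes in males and 0% in females, and 0 members had an unadjusted p under 0.05 or a call in DESeq2. The median log2 fold change of the 7 members was 1.59 in males and 1.56 in females at the highest dose, beside 0.10 and -0.01 over all probes tested, and 0.75 in males and 0.17 in females at the middle dose, beside 0 and -0.001 (edgeR). With the size factors of DESeq2 in the edgeR fit, the shift of 0.10 over all probes in males was 0.03. Both the calls at the highest dose and their directions were the same in that fit. The DESeq2 test itself called 4 members in males at the highest dose, without Cpt1b, and 3 in females. Groups did not overlap for 5 members in males at the highest dose (5.29% of probes had every treated mouse above every control), for 4 in females at the highest dose (1.86%), for 1 in males at the middle dose (2.18%) and for none in females at the middle dose (0.912%). With mouse 355 included, the members called fell to 2 in males and 0 in females at the highest dose, and the probes called in either direction fell from 1480 to 834 in males and from 655 to 238 in females.

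**Figure D4:**
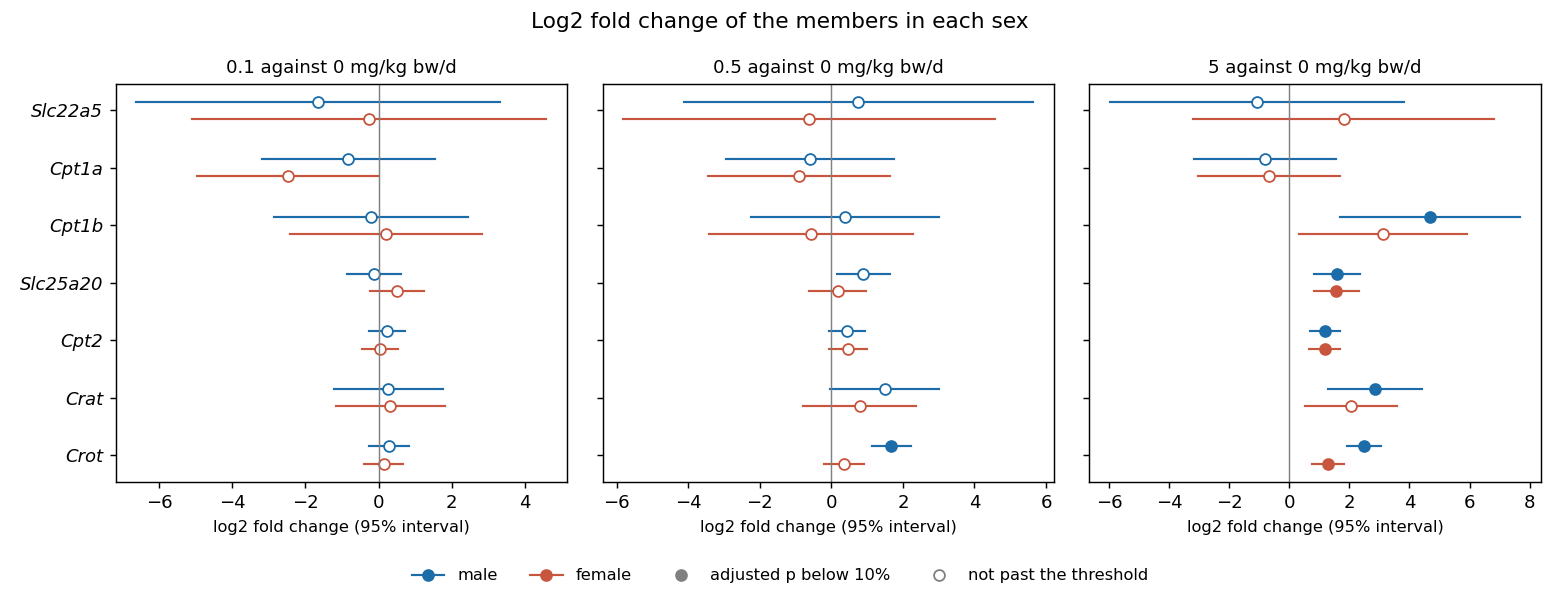
Log2 fold change against control mice of the same sex (x axis) with its 95% interval for each member (y axis) by dose, males in blue and females in red, filled where the adjusted p is below 10%. At 5 mg/kg 5 points are filled in males and 3 in females, and the intervals of Slc22a5 and Cpt1a span 0 throughout, that of Cpt1a in females at 0.1 mg/kg only just.

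The sexes were compared by the interaction of sex and dose. No member passed the threshold at the lowest, middle or highest dose, where 0%, 0.274% and 1.04% of probes did, and DESeq2 also called 0 members. For Crot the effect in females minus that in males was -1.32 at the middle dose (SE 0.39, unadjusted p = 0.00147, adjusted p = 0.191) and -1.19 at the highest dose (SE 0.38, unadjusted p = 0.00262, adjusted p = 0.126), and no other member had an unadjusted p under 0.05. At the highest dose this difference had an adjusted p of 0.0717 without male 405, 0.0598 in units of molecules and 0.0297 with no filter on low counts. The intervals of the difference at the highest dose were -0.72 to 0.71 for Cpt2 and -1.07 to 1.03 for Slc25a20, and for Cpt1b -5.27 to 2.14, a range of several log2 units.

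Between the middle and the highest dose, 1 member rose further past the threshold. Slc25a20 rose in females by 1.39 on the log2 scale (SE 0.40, adjusted p = 0.0976), where 0.571% of probes rose, and no member was called in males, where 0.973% of probes rose and 3 members (Cpt1b, Cpt2 and Crot) had an unadjusted p under 0.05. DESeq2 called 2 members in females and 1 in males. The female call was lost without any 1 of mice 351, 352, 354, 451, 452, 454 and 455 (adjusted p of 0.107 to 0.397), in a fit of females alone (0.122), in a fit of the 2 groups alone (0.223) and with mouse 355 included (0.188), so that 8 of 18 fits called it. The step in Crot was 0.80 in males (SE 0.27, adjusted p = 0.139) and 0.92 in females (SE 0.29, adjusted p = 0.148).

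Genes beside the shuttle were counted in lists taken whole. Of the 6 genes of oxidation in the matrix (Acadvl, Acadl, Acadm, Hadha, Hadhb and Etfdh), 5 rose in males at the middle dose, 5 in males at the highest dose and 5 in females at the highest dose, all but Etfdh, which passes electrons to ubiquinone, beside 1.74%, 4.83% and 1.83% of all probes tested. Their median log2 fold change was 1.62 in males and 1.30 in females at the highest dose and 0.97 in males at the middle dose. Acadm, the medium-chain dehydrogenase, rose in 4 comparisons (0.68 in females and 1.11 in males at the middle dose, 1.49 and 1.62 at the highest dose), and Acadl, the long-chain dehydrogenase, reached 2.33 in males (adjusted p = 7.7e-17).

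Of the 5 acyl-CoA synthetases, which load fatty acids onto coenzyme A before Cpt1 acts, Acsl1 rose at the middle dose in both sexes and Acsl1 and Acsl5 rose at the highest dose in both sexes, beside the same shares of all probes and 0.185% in females at the middle dose, against which the counts of the remaining lists stand too. The log2 fold changes of Acsl1 against controls were 0.999 (middle) and 1.29 (highest) for males, and 0.66 and 1.34 for females. Of the 5 genes of carnitine synthesis, Aldh9a1, which makes butyrobetaine, rose in males at the middle dose (0.60, adjusted p = 0.0196). It also rose at the highest dose in both sexes (1.12 and 0.81). Tmlhe, Shmt1, Shmt2 and Bbox1 did not pass the test (median of the list -0.22 in males and 0.38 in females at the highest dose). Of the 3 genes that set malonyl-CoA, Acaca, a maker of malonyl-CoA, rose in males at the highest dose (1.43, SE 0.35, adjusted p = 0.00478) and had an adjusted p of 0.103 in females (1.06), while Acacb and Mlycd, which removes malonyl-CoA, did not pass the test. None of the 5 other carnitine genes (Cpt1c, Slc22a4, Slc22a21, Slc16a9 and Slc25a29) was called in any of the 6 comparisons. No median is given for the synthetases and the other carnitine genes, since several had groups with no reads.

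**Figure D5:**
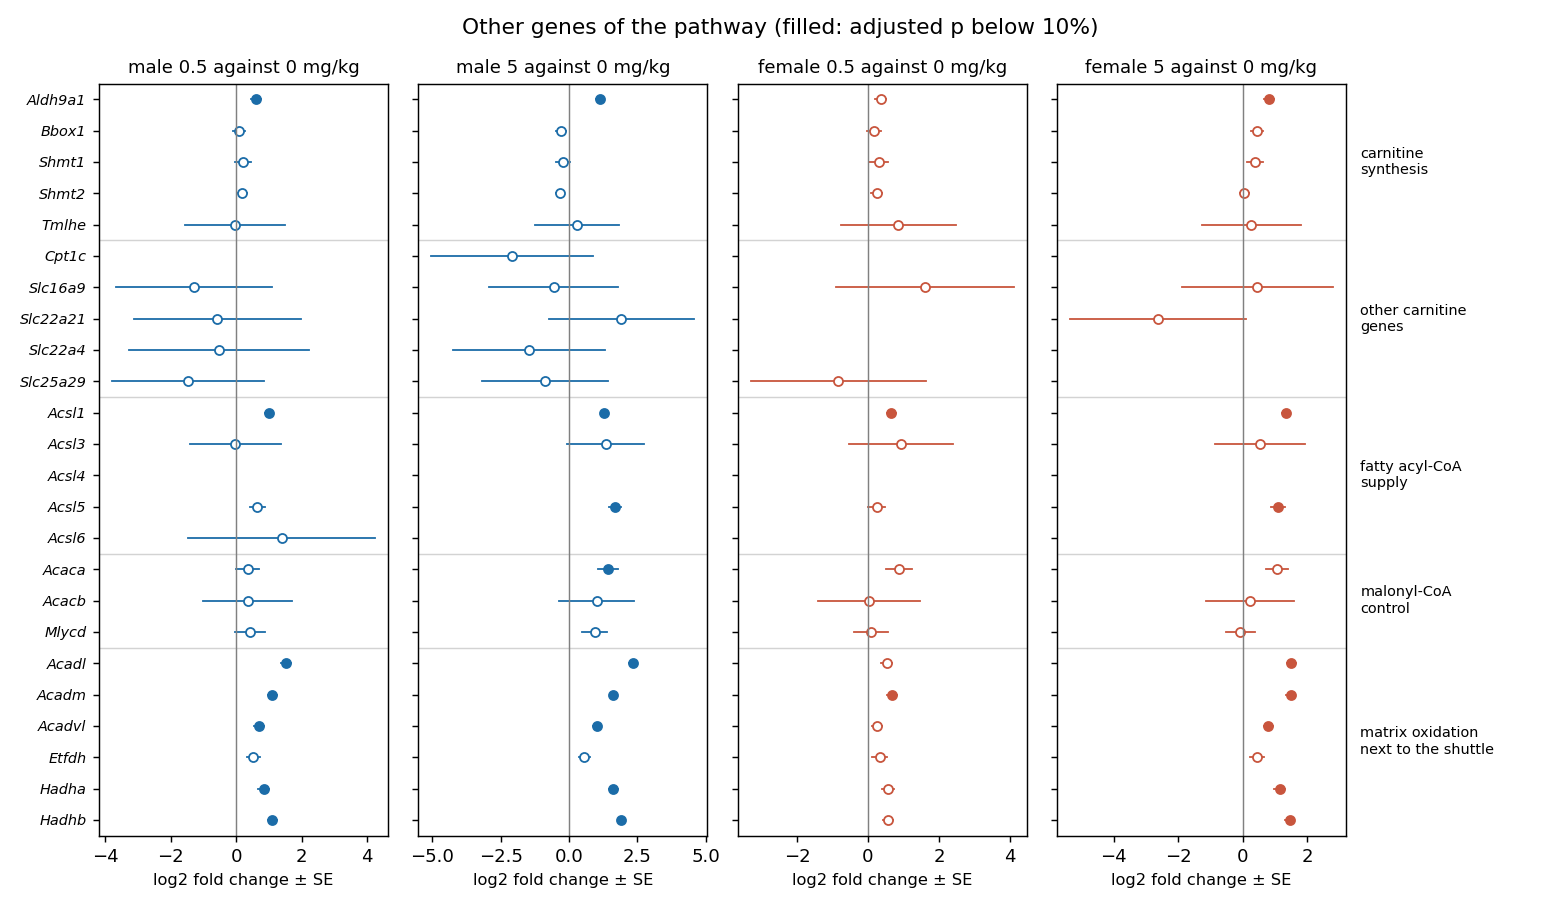
Log2 fold change ± SE (x axis) of the other pathway genes (y axis, grouped by list) at 0.5 and 5 mg/kg in males (blue) and females (red), filled where the adjusted p is below 10%, with comparisons left out where a group had no reads. The filled points lie to the right of 0, among them 5 of the 6 matrix enzymes in males at 0.5 and 5 mg/kg and in females at 5 mg/kg.

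Across the 39 libraries, the genes whose level ran most like that of a member were named by Spearman's rho of log2 CPM over 12417 other genes, as a description, since dose, sex and library depth are shared by all of them. For Crot they were Acadl (rho 0.906), Cyp4a10 (0.904) and Vwa8 (0.89). Cpt2 ran most like Eci1, Acot1 and Decr1 (rho 0.818, 0.803 and 0.802), and Slc25a20 like Ndufab1, Atp5g3 and Shtn1 (0.815, 0.81 and 0.797). Cpt1b ran most like Ucp3, Fabp3 and Psmf1 (0.73, 0.723 and 0.71), and Crat like Minos1, Cyp4a31 and Hsd17b4 (0.76, 0.749 and 0.738). The values were lower for Cpt1a (Selenoi, Ccdc92 and Agtrap, at most 0.583), and those of Slc22a5 (Tuba3a, Adgrb3 and Il22ra1, at most 0.784) rest on 16 libraries with reads. Among the members themselves, rho lay between 0.548 and 0.664 for each pair of Cpt1b, Slc25a20, Cpt2, Crat and Crot, and between -0.224 and 0.0298 for Cpt1a against those 5.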

How the data were processed

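TempO-Seq counts came from liver sections of 40 mice (8 groups of 5, by sex and dose). The authors deposited raw counts per probe (30146 probes), not normalized. The submitters' processing notes name bcl2fastq 2.17.1.14, Bowtie and mm10, and the counting settings are not given in the sources used here. Groups were taken from the labels. The library under the depth limit of the study's methods was left out, as in those methods.

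Counts were fitted in R 4.3.3 with edgeR 4.0.16 (TMM, default filter on low counts, quasi-likelihood F-test, 1 coefficient per group over all 39 libraries, no covariates), with Benjamini-Hochberg adjustment over the 17877 probes tested and a threshold of 10%. The filter keeps probes read in a single group, so a probe near 0 in controls can enter through the treated mice. SE is the log2 fold change divided by the square root of F, with 95% intervals. DESeq2 1.42.0, the tool of the study's methods, was an alternative, as were its size factors in edgeR, no filter, all 40 libraries, 1 sex, the 2 groups of a comparison alone, summed probes, the other probes, molecules, a prior count of 0.5 for the ratio and leaving out each mouse. The fit was tested on simulated data. No pair of libraries in a group was identical, and Pearson's r of log2 CPM within groups was 0.777 to 0.851. Each animal has its own number, so no mice are paired.

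The text names all 7 members, the pathway genes past the threshold in most comparisons of lists taken whole, and the 3 genes most alike each member. Members and lists were chosen with earlier results of these data known. P-values measure the spread between single mice. Probe sequences were not used here, so which exons a probe covers is not stated. Gene positions are from GENCODE vM21 and promoters from RefSeq, both on GRCm38 (mm10).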

Additional observations from a re-analysis of the deposited data

Results flagged for a closer look

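In 8 of 56 groups of 4 or 5 mice, 1 mouse stood apart from the rest on the log2 CPM scale by a gap that made up most of the group's range (Dixon's test at 95%, which chance passes in about 1 in 20 groups). That rate does not hold for a group in which all but 1 mouse read 0, since it always passes. Of the 8 groups, 5 lay in Slc22a5 and Cpt1a, which had few molecules in any library. Slc22a5 was highest at 3.1 CPM in male 203 (0.1 mg/kg), at 4.92 CPM in control female 155 and at 2.55 CPM in female 353 (0.5 mg/kg), each against 0 in the others, and lowest at 0 in male 302 (0.5 mg/kg). Cpt1a was lowest at 0 in male 401 (5 mg/kg), and Crat was lowest at 0.314 CPM in female 252 (0.1 mg/kg), where the next mouse read 9.65 CPM. Cpt1b in female 453 at 5 mg/kg read 8.53 CPM against 20.2 CPM in the next mouse. The same female was lowest of its group for Crat (9.32 CPM), Slc25a20 (29.4 CPM), Crot (148 CPM) and the second Cpt1b probe (1.99 CPM). It was also lowest on Cpt1b_31741 (0 CPM), Cpt2_78530 (4.62 CPM) and Crat_79407 (27.7 CPM), but not on the main probe of Cpt2 (65.2 CPM). Crot in control male 104 read 16 CPM against 42.8 CPM in the next mouse, and this mouse was also lowest of the control males for Slc25a20 (6.91 CPM) and Crat (0 CPM). No difference between the sexes passed the interaction test in the members.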

How the results depend on the processing

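Counts of members called moved by over 1.5 times in these cases. At 5 mg/kg in females, 3 members became 5 with no filter, with probes summed and in molecules, and 0 with all 40 libraries, where males had 2 at 5 mg/kg and 0 at 0.5 mg/kg, and the control comparison and the female step from 0.5 to 5 mg/kg had 0. Summed probes gave 2 members in males at 0.5 mg/kg. The female step of 1 member gave 2 in DESeq2, 3 with no filter, 2 with probes summed and 3 in molecules, and the male step of 0 gave 1, 2, 3 and 4 in the same order, 2 in a fit of 1 sex and 4 in a fit of the groups compared, which gave 0 for the controls. The interaction gave 1 member, Crot, at 0.5 mg/kg with no filter and at 5 mg/kg with no filter and in molecules. Leaving out each mouse gave 4 to 5 members in males and 3 to 4 in females at 5 mg/kg, 0 to 1 for each step, for the controls and for the interaction at 5 mg/kg. The difference of the log2 ratio of Cpt1b to Cpt1a ranged over those from 6.57 to 8.98 in males and 4.56 to 6.38 in females at 5 mg/kg, and from -0.56 to 1.66 in females at 0.5 mg/kg, where leaving out control 152 (-0.16) or treated 354 (-0.56) reversed it. The cause was not tested.

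Directions reversed in values that were not called in the main comparison, in part where the sign was fixed in advance, as stated below. Slc22a5 at 5 mg/kg in males was 0.81 with probes summed and 7.51 and 6.57 on its other probes, and in females at 0.5 mg/kg 0.65, 6.66, 0 and, leaving out each mouse, -6.72 to 6.09 (the latter without control 155). Cpt1b in females at 0.5 mg/kg was 0.51 with probes summed, 2.14 and 6.58 on its other probes and -1.68 to 0.91 leaving out each mouse (the latter without control 155), and in males at 0.5 mg/kg -0.36 on Cpt1b_31741 and -0.33 (without mouse 301) to 2.06 leaving out each mouse. Slc25a20 in females at 0.5 mg/kg was -0.16 with all 40 libraries, -0.022 without mouse 352, and -0.058 (without mouse 353) to 0.493 leaving out each mouse. Fitted values against groups at 0, 6.58 among them, depend on the prior count and are no folds. On Cpt1b_80344 and the other Slc22a5 probes every control read 0, so these values could not be negative and show no reversal. The same holds for Slc22a5 in females without control 155, since the remaining controls read 0. The summed values of both genes include these probes. Of the values of single members, 550 kept direction and side of the threshold, 29 fell below it and 14 passed it. No paired analysis was possible because each animal number belongs to 1 mouse. Depth limits Cpt1a and Slc22a5 most, with at most 7.9 and 3.2 molecules in a library.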
